A study of Mus musculus with 32 samples.

Results

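The major urinary protein genes examined here were *Mup1*, *Mup2*, *Mup3*, *Mup7*, *Mup9*, *Mup11*, *Mup17*, *Mup20* and *Mup21*, 9 of the 54532 genes in the deposited table of liver read counts. They were taken by name from that table, and *Mup7* was chosen by its measured level, for a large fall in *Cyp2c70* KO mice. The rule that chose it names neither diet nor sex, so the differences of *Mup7* between KO and WT mice are given below as a description on either diet, as are those of all members on chow. The differences of *Mup7* between the sexes are given in the same way, in WT as in KO mice. The table held 48 rows named as members of this family, of which 21 carried a gene number and 27 were pseudogenes. The study compared WT and *Cyp2c70* KO mice (cyp2c70 -/-) of both sexes, fed chow or a diet with 0.006% SC-435, about 11 mg/kg/day. SC-435 blocks the transporter in the ileum (IBAT) by which bile acids are taken back from the gut and returned to the liver. All mice were 12 weeks old and C57BL/6. The labels place the change to SC-435 at 3 weeks after weaning, whereas the study's own scheme places it at weaning, so the length of feeding is uncertain. Chow mice had no change of diet. The KO mice carried a CRISPR deletion in *Cyp2c70* and descended from a single founder line, so a difference between genotypes is also a difference between this line and its WT controls. The 8 groups were female and male WT chow, WT SC-435, KO chow and KO SC-435, each with 4 mice and 1 liver library per mouse.

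Major urinary proteins are small lipocalins, barrel-shaped carriers of greasy small molecules. In mice the liver secretes them into blood, the kidney filters them, and urine carries them together with the volatile pheromones that they bind. Adult males make far more of them than females, under control of the pulsatile growth hormone signal that acts through STAT5B, with further effects of androgens, glucocorticoids and nutrition. *Mup20* encodes darcin, a male pheromone protein in its own right. The other members described here encode closely related urinary proteins, and *Mup3* is the member usually abundant in the liver of both sexes.

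The members lie on chromosome 4 of mm10, all on the minus strand, within a run of 47 Mup rows from chr4:59956804-62150863. *Mup7* lies at chr4:60066469-60070475, *Mup17* at chr4:61591929-61595871, *Mup20* at chr4:62050234-62054158, *Mup3* at chr4:62083476-62087342 and *Mup21* at chr4:62147932-62150863. The positions of all 9 members were the same in the GENCODE M21 annotation, in which *Mup21* has 6 exons and the others have 7. Their coding sequences are 540 to 552 bases long. The coding sequences of *Mup1*, *Mup2*, *Mup7*, *Mup9*, *Mup11* and *Mup17* were at least 98.7% identical in every pair, and these genes are called the 6 near-identical members below. *Mup20* was 90.6% to 91.5% identical to them, *Mup3* 85.1% to 86.0% and *Mup21* 84.1% to 85.0%. *Mup3* and *Mup21* were 96.3% identical to each other.

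The difference can be seen in coding bases 121 to 180, counted from the A of the start codon of *Mup7*, read from the GENCODE M21 transcripts. Capitals mark bases that differ from *Mup7*. *Mup1*, *Mup2* and *Mup9* have the bases shown for *Mup11*, and *Mup21* has those shown for *Mup3*.
Mup7: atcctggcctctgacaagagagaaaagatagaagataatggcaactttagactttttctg
Mup11: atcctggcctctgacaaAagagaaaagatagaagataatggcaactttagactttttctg
Mup17: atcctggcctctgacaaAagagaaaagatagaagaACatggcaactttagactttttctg
Mup20: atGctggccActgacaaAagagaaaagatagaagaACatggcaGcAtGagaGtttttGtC
Mup3: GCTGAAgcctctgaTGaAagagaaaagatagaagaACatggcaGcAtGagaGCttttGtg
Over these 60 bases *Mup11* differed from *Mup7* at 1 base, *Mup17* at 3, *Mup20* at 11 and *Mup3* at 17. This closeness limits what a short read can tell. Of all stretches of 50 bases in the transcripts of *Mup7*, 13.32% occurred in no other gene's transcript. The same share was 86.73% for *Mup3* and 80.73% for *Mup21*. It was 49.49% for *Mup20*, whose main partner was the pseudogene *Mup-ps19*, with 422 of 879 stretches in common. For the other members it lay between 20.89% (*Mup9*) and 38.38% (*Mup1*). Stretches of 150 bases were unique for all of *Mup3* and *Mup21*, for 68.93% in *Mup20* and for 32.85% in *Mup7*. How reads matching several places were counted is not given in the sources used here, so the level of a single gene among the 6 near-identical members is uncertain, and their sum is given for each comparison between sexes and between genotypes.

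**Figure D1:**
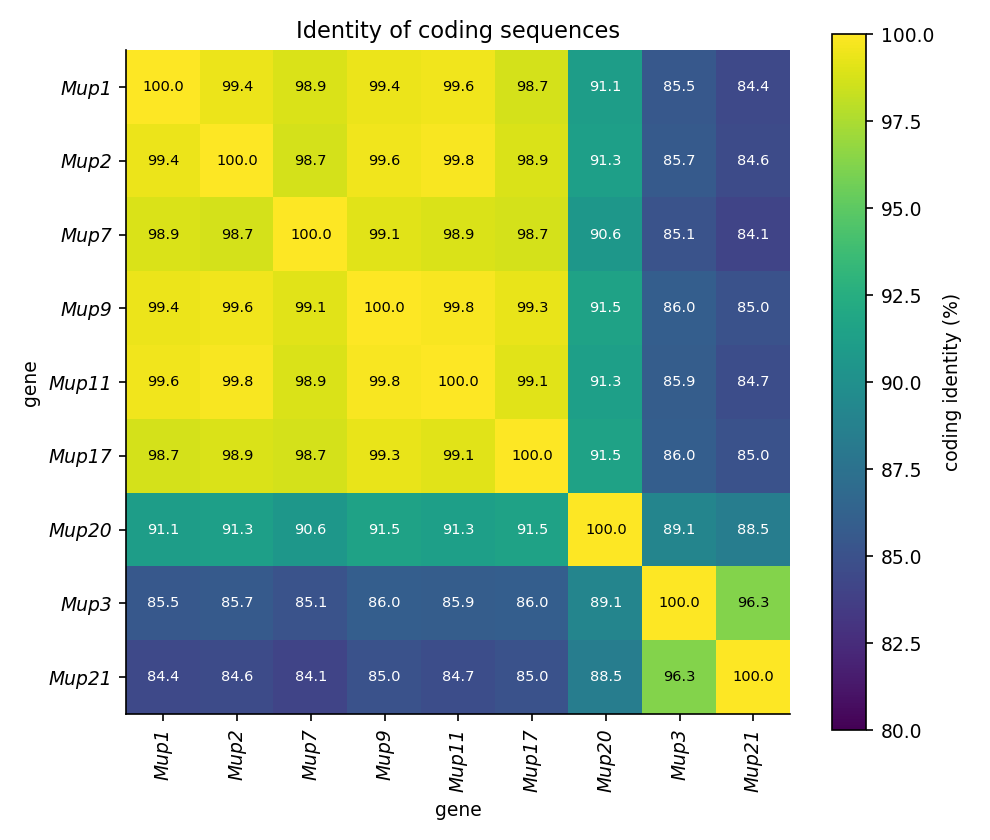
Percent identity of the coding sequences of the 9 members, pair by pair, on both axes and as color. The block of *Mup1*, *Mup2*, *Mup7*, *Mup9*, *Mup11* and *Mup17* is at 98.7% or above, *Mup20* is at 88.5% to 91.5% with the other members, and *Mup3* with *Mup21* forms a pair at 96.3%.

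Bases near the annotated start are shown for *Mup9*, *Mup17*, *Mup3* and *Mup21*, which were called higher in males in both SC-435 settings (below), while in WT chow mice only *Mup21* of these was. RefSeq promoter windows on GRCm38.p6, from 250 bases before to 50 after the annotated start, were matched for 7 members, without *Mup1* and *Mup20*. The letters TATATAA, searched on both strands, were found in 6 of these 7 windows, all but that of *Mup7*, and in 3.24% of the 32851 windows of all genes. Below, TATATAA is in capitals at the end of 60 bases on the minus strand, for *Mup9* at chr4:60421977-60422036, *Mup17* at chr4:61595851-61595910, *Mup3* at chr4:62087322-62087381 and *Mup21* at chr4:62150843-62150902.
Mup9: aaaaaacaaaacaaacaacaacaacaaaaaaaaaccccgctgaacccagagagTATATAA
Mup17: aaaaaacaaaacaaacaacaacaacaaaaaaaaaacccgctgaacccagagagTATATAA
Mup3: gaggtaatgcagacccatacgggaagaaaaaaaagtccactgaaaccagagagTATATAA
Mup21: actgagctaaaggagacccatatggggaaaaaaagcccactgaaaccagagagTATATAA
*Mup9* and *Mup17* have a long run rich in A before TATATAA, with 37 and 38 A in the 60 bases, and *Mup3* and *Mup21* have 28 and 27. *Mup2*, which was not called in either SC-435 setting, has a stretch much like those of *Mup9* and *Mup17*, with 37 A. The stretches shown are thus not particular to members called higher in males. The letters TTCNNNGAA, the core of STAT5 sites, were found in 0 of the 7 windows and in 8.3% of all windows, on both strands. The RefSeq starts differ from those of GENCODE M21, by which TATATAA lies before the start in *Mup9* but just inside the first exon in *Mup17*, *Mup3* and *Mup21*. These matches describe letters in a short window and not binding.

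Library totals ranged from 36476021 to 44771350 counts. Levels are given as CPM scaled by TMM, which aligns libraries on the bulk of their genes, and the SD is over the 4 mice of a group. *Cyp2c70* lay between 110 and 187 CPM in the 16 KO libraries and between 275 and 851 CPM in the 16 WT libraries, without overlap. Of 12 hepatocyte markers 11 were in the table, and all 11 averaged above 1 CPM in every group. The library of male WT chow replicate 1 stood apart, with a TMM factor of 0.639 and a mean correlation of 0.884 with its group mates, where no other library was below 0.953. It also had 5.73 CPM of the Y-linked gene *Ddx3y*, against 55.2 CPM or more in the other males, with *Xist* at 0.202 CPM or less in all males. Its effect on the levels and calls is given with them.

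In both genotypes and on both diets, every member called between the sexes was higher in males. Females also made *Mup3* in quantity and, in WT mice, *Mup17*. In WT chow mice *Mup17* had 413 ± 418 CPM in females and 1179 ± 339 in males, *Mup2* had 7.36 ± 2.18 and 9.31 ± 3.67, and *Mup9* had 4.33 ± 3.27 and 5.78 ± 2.36, with overlapping groups for each. None of these 3 was called there (log2 differences 1.53 ± 0.80, 0.37 ± 0.35 and 0.44 ± 0.57, edgeR adjusted p = 0.55, 0.734 and 0.806). The family took 1.93% ± 0.725 of all counts in male WT chow mice and 0.354% ± 0.169 in female WT chow mice (SD, n = 4). Male replicate 1, the library that stood apart, had 0.898%, and the other 3 males had 1.98% to 2.51%. Per kilobase of transcript, the highest levels in male WT chow mice were those of *Mup7*, 7235 ± 2162 CPM per kb, and *Mup3*, 5638 ± 1727, whose ranges overlapped. *Mup20* at 1290 ± 233 and *Mup17* at 1271 ± 365 followed and could not be ranked against each other. *Mup11* at 265 ± 191, *Mup21* at 186 ± 77.7 and *Mup1* at 46.6 ± 47.5 CPM per kb came next. *Mup2* at 6.97 ± 2.75 and *Mup9* at 3.86 ± 1.58 CPM per kb were lowest. In female WT chow mice *Mup3* was highest, at 1965 ± 541 CPM per kb, followed by *Mup17* at 446 ± 451. The other members averaged 31.0 CPM per kb (*Mup20*) or less in those females, including *Mup7* at 18.3 ± 32.2, where female replicate 2 alone had 68.8 CPM and the others 3.99 CPM or less. Without male WT chow replicate 1 the mean of *Mup1* in that group was 37.7 CPM, against 73.8 CPM with it, and the means of the other members moved by less than 1.5 times.

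**Figure D2:**
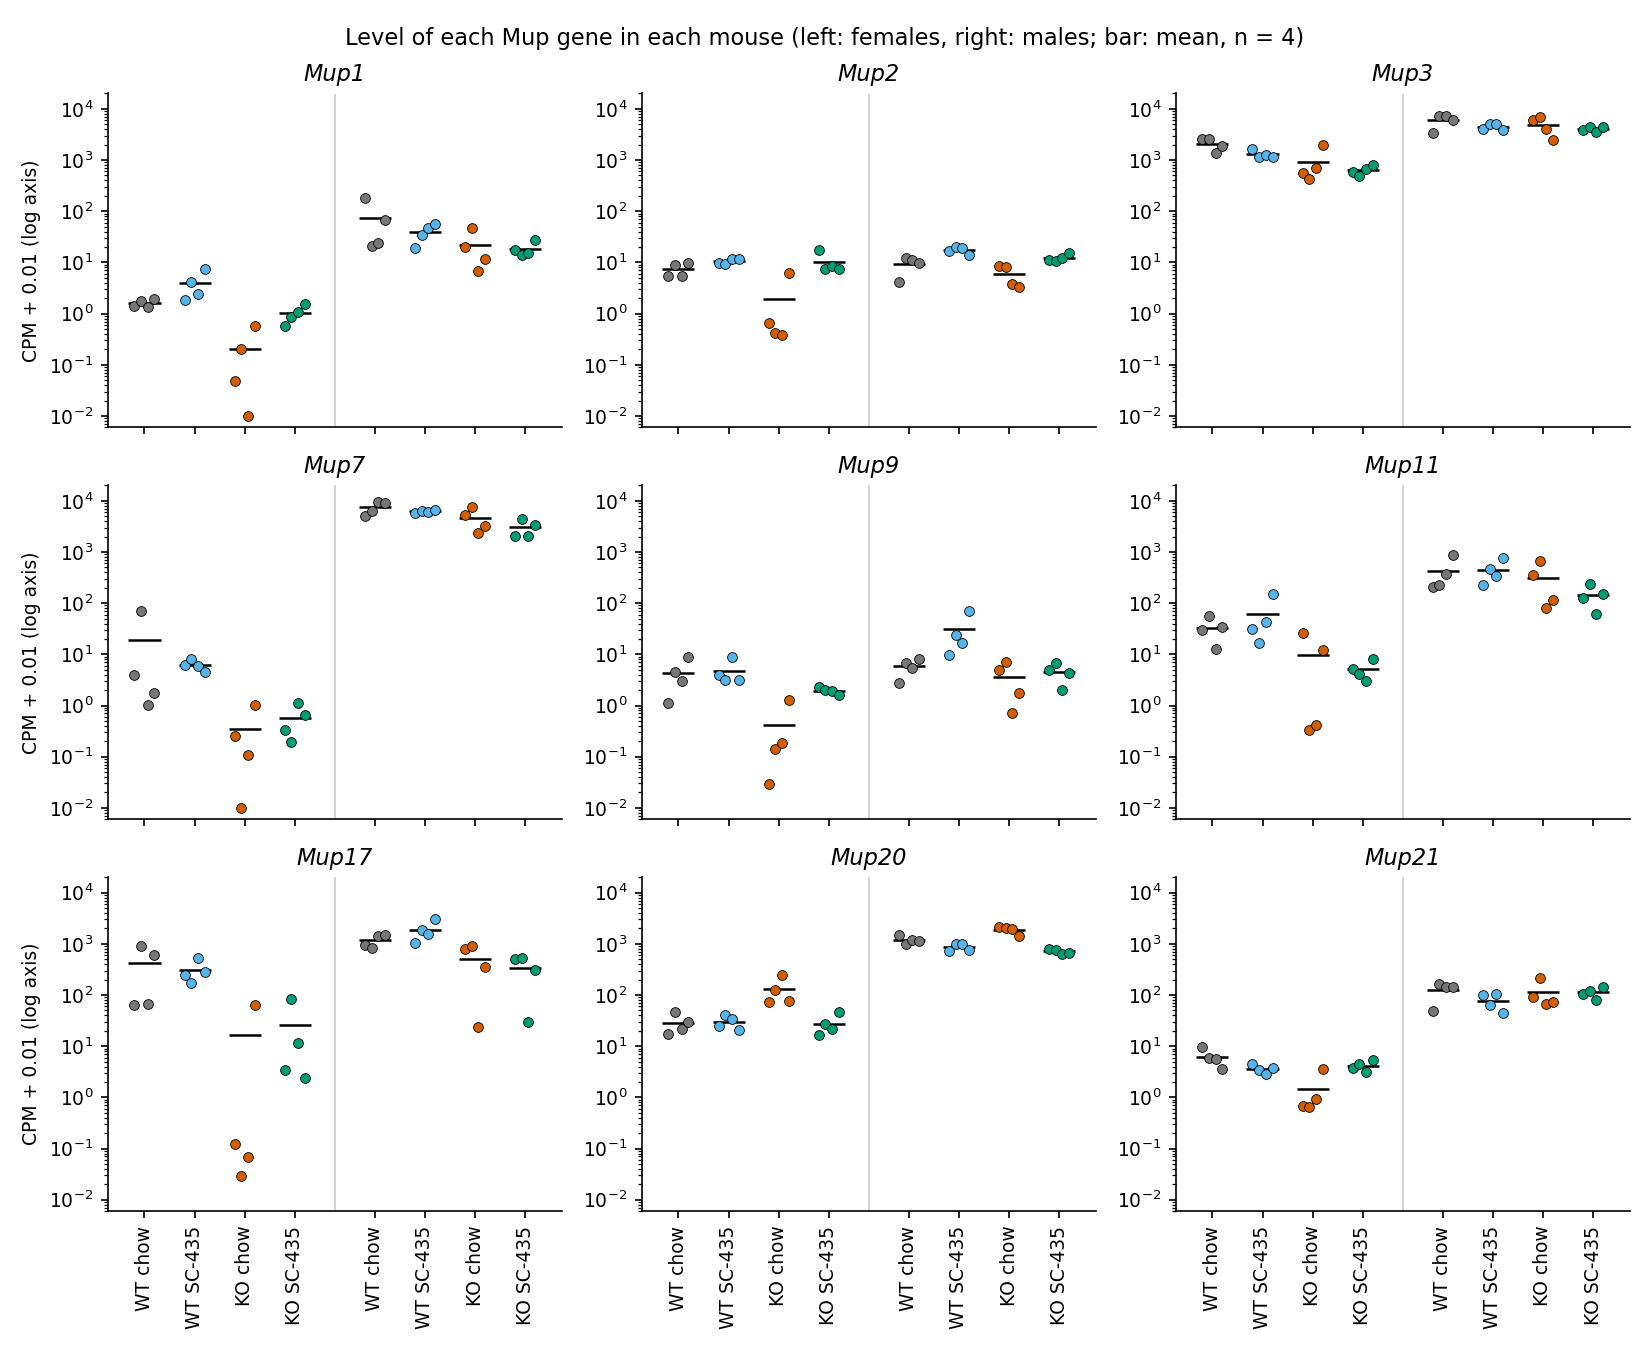
CPM of each member in each mouse on a log axis, with 0.01 added so that 0 can be drawn, for the 4 female groups on the left and the 4 male groups on the right of each panel. Points are mice and bars are group means (n = 4). *Mup7* lies between 2048 and 9555 CPM in every male and between 0 and 68.8 CPM in every female, while *Mup2* overlaps between the sexes in every setting but WT SC-435.

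*Mup7* separated the sexes furthest. Male WT chow mice had 4998, 6184, 9555 and 9158 CPM, and female WT chow mice had 3.99, 68.8, 1.03 and 1.77 CPM. On SC-435 the WT males had 5813, 6416, 6013 and 6699 CPM and the WT females 6.13, 8.22, 5.84 and 4.54 CPM. Every male lay above every female, and 1 female, WT chow replicate 2, was far above its group mates. In KO mice on chow the males had 5367, 7686, 2398 and 3207 CPM, and the females had 0.248, 0, 0.0982 and 1.02 CPM, from 13, 0, 5 and 42 reads. KO males on SC-435 had 2048, 4479, 2088 and 3438 CPM and KO females 0.329, 0.185, 1.13 and 0.636 CPM, from 8 to 44 reads. In edgeR *Mup7* was higher in males by 8.65 ± 1.58 on the log2 scale in WT chow mice (SE). The difference was 9.97 ± 0.24 in WT SC-435 mice, 13.80 ± 1.07 in KO chow mice and 12.37 ± 0.50 in KO SC-435 mice. These values are given with no test. *Mup7* was chosen for a fall in KO against WT mice, so mice of both genotypes may have entered that choice. Without female WT chow replicate 2 the difference in WT chow mice was 11.72. The other members were tested with edgeR's quasi-likelihood test and Benjamini-Hochberg adjustment over all genes.

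The sum of the 6 near-identical members lay closer between the sexes than *Mup7* did. It was 479 ± 465 CPM in female and 9159 ± 2734 CPM in male WT chow mice, and 10095 ± 2441 CPM in those males without replicate 1. In KO chow mice it was 28.8 ± 40.0 CPM in females and 5515 ± 3044 CPM in males. On SC-435 it was 391 ± 170 CPM in female and 8631 ± 1490 CPM in male WT mice, and 44.3 ± 36.6 CPM in female and 3532 ± 1368 CPM in male KO mice. In each of these settings every male lay above every female.

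*Mup20*, the gene of the male pheromone protein darcin, was higher in every male than in any female. Male WT chow mice had 1495, 979, 1174 and 1140 CPM and female WT chow mice 17.6, 46.4, 21.5 and 29.5 CPM, a log2 difference of 5.41 ± 0.37 by edgeR (adjusted p = 0.000178). The log2 difference was 4.83 ± 0.25 in WT SC-435 mice, 3.82 ± 0.42 in KO chow mice and 4.67 ± 0.29 in KO SC-435 mice (adjusted p = 4.5e-06, 0.00186 and 1.39e-06). *Mup21* was also called higher in males in all 4 settings, by 4.36 ± 0.47 on the log2 scale in WT chow mice and 6.29 ± 0.70 in KO chow mice by edgeR (adjusted p = 0.0018 and 0.00189). Its levels were 48.2 to 165 CPM in male and 3.51 to 9.71 CPM in female WT chow mice.

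A gene was called when its adjusted p was under 0.05 and its log2 fold change beyond 1. Between males and females, 5 of 9 members were called in WT chow mice, all higher in males (*Mup1*, *Mup7*, *Mup11*, *Mup20* and *Mup21*), where 1.4% of all 15525 genes tested were called. In WT SC-435 mice 8 of 9 were called, all higher in males, against 2.15% of all genes. In KO chow mice 5 of 9 were called higher in males (*Mup1*, *Mup3*, *Mup7*, *Mup20* and *Mup21*), against 1.57% of all genes. In KO SC-435 mice 8 of 9 were called higher in males, against 6.02%. The number in each setting, WT or KO, includes *Mup7*, whose call is not independent of its choice. These numbers also include members near-identical to *Mup7*, which may share reads with it. Their calls may therefore not be independent of that choice either. *Mup2* was the member not called in both SC-435 settings. Its log2 difference was 0.71 ± 0.13 in WT SC-435 mice, under the fold limit, and 0.26 ± 0.26 in KO SC-435 mice (edgeR adjusted p = 0.0102 and 0.483). The median log2 difference of the 9 members ranged from 2.85 in WT SC-435 mice to 4.94 in KO chow mice, and that of all genes from -0.016 to 0.009. Without male WT chow replicate 1, *Mup3* was also called in WT chow mice (log2 difference 1.73, edgeR adjusted p = 0.00111, against 1.55 and 0.0504 with it). *Mup7* lost its call in WT chow mice without any 1 of female replicate 1, 3 or 4 or male replicate 2, 3 or 4, with its log2 difference between 8.25 and 8.73. *Mup11* lost its call there without female replicate 1, 3 or 4, and *Mup1* without female replicate 1, which left 2 or 3 members called. Without female KO chow replicate 4, 8 of 9 members were called in KO chow mice, *Mup2*, *Mup9* and *Mup17* in addition. The share of all genes called without that library is not given, so the rise is not read as a result about the members. *Mup3* lost its call in KO chow mice without any 1 of female replicate 1, 2 or 3 or male replicate 1, 2 or 3 (edgeR adjusted p up to 0.131). In WT SC-435 mice *Mup9* and *Mup11*, and in KO SC-435 mice *Mup17* and *Mup9*, lost their calls without single libraries, while the other called members kept theirs. When all 8 groups shared 1 estimate of the spread, *Mup11* and *Mup17* were not called in WT SC-435 mice (edgeR adjusted p = 0.093 and 0.45), nor *Mup9* and *Mup17* in KO SC-435 mice (adjusted p = 0.369 and 0.131). With the replicate number as a block *Mup9* was not called in WT SC-435 mice (edgeR adjusted p = 0.0718). *Mup3* was called in WT chow mice by DESeq2 and with median-of-ratios size factors, with no filter on low counts and in 1 fit over 8 groups (adjusted p = 8.61e-05 by DESeq2, 0.0456, 0.0427 and 0.00475 by edgeR). In KO chow mice *Mup3* lost its call with those size factors and with the block (edgeR adjusted p up to 0.165), as *Mup11* did in WT chow mice with the block (adjusted p = 0.0619).

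**Figure D3:**
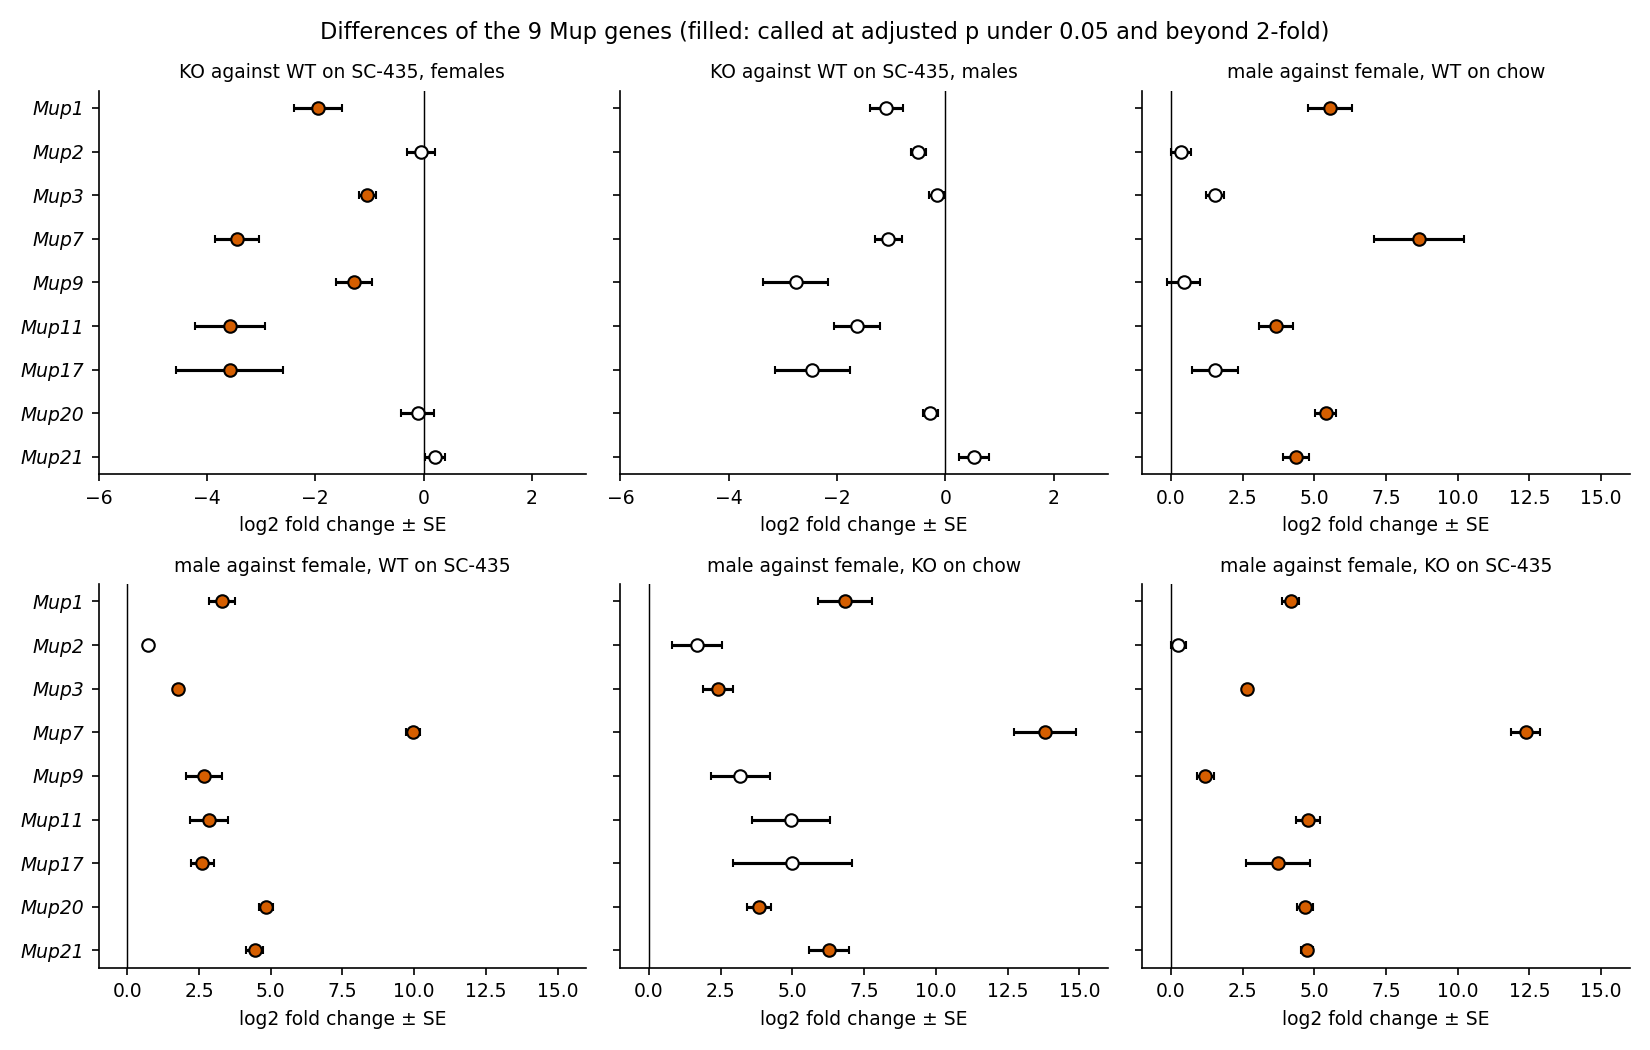
Log2 fold change with its SE of the 9 members in 6 comparisons, KO against WT on SC-435 and male against female in 4 settings. Filled points passed both limits, 6 of 9 in female KO against WT mice on SC-435, 0 of 9 in males, and 5, 8, 5 and 8 of 9 between the sexes. The *Mup7* points in all panels are a description, since *Mup7* was chosen for a fall in KO against WT mice.

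Next, the members were compared between genotypes on SC-435, in libraries apart from the chow mice. In females, KO mice on SC-435 had lower levels of *Mup1*, *Mup3*, *Mup7*, *Mup9*, *Mup11* and *Mup17* than WT mice on SC-435, without overlap between the groups, while the groups overlapped for *Mup2*, *Mup20* and *Mup21*. *Mup7* had 6.13, 8.22, 5.84 and 4.54 CPM in WT and 0.329, 0.185, 1.13 and 0.636 CPM in KO females, so every KO female was below every WT female. Its log2 fold change was -3.44 ± 0.40, given with no test because *Mup7* was chosen for a fall in KO mice and these mice may have entered that choice. *Mup17* had 247, 169, 520 and 284 CPM in WT and 3.38, 84.5, 11.6 and 2.34 CPM in KO females, and KO replicate 2 stood high within its group. Its log2 fold change was -3.58 ± 0.99 by edgeR (adjusted p = 0.0445). *Mup11* ranged from 16.7 to 154 CPM in WT and from 3.04 to 7.97 CPM in KO females (log2 fold change -3.57 ± 0.65, edgeR adjusted p = 0.00894).

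*Mup3*, which supplied 52.8% to 76.7% of the counts in the 48 Mup rows on average in the female groups, though 29.3% in 1 WT SC-435 female, had 1666, 1169, 1280 and 1169 CPM in WT and 577, 499, 683 and 803 CPM in KO females on SC-435. Its log2 fold change was -1.04 ± 0.16, with the smallest adjusted p of the members other than *Mup7* (edgeR adjusted p = 0.00416). *Mup1* and *Mup9* also fell, by 1.95 ± 0.44 and by 1.28 ± 0.33 on the log2 scale (edgeR adjusted p = 0.0215 and 0.0327). *Mup20* had 20.6 to 41.5 CPM in WT and 16.3 to 46.2 CPM in KO females (log2 fold change -0.11 ± 0.31, edgeR adjusted p = 0.854). *Mup2* (log2 fold change -0.04 ± 0.26, adjusted p = 0.935) and *Mup21* (0.21 ± 0.19, adjusted p = 0.508) were likewise not called by edgeR. The 6 near-identical members summed to 391 ± 170 CPM in WT and 44.3 ± 36.6 CPM in KO females on SC-435.

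In all, 6 of 9 members were called in female KO against WT mice on SC-435, all lower, where 2.56% of all 15869 genes tested were called. One of them was *Mup7*, whose call is not independent of its choice, which leaves 5 of the other 8. Among these 5, *Mup1*, *Mup9*, *Mup11* and *Mup17* are near-identical to *Mup7* and may share reads with it. Their calls may therefore not be independent of that choice either. *Mup3* is less alike in sequence, but its levels correlated with those of *Mup7* over the 32 mice (r = 0.703, mean of each sex removed). The median log2 fold change was -1.28 for the members and -0.004 for all genes. The calls rested on the spread within these 8 libraries. When all 8 groups shared 1 estimate of the spread, 0 of 9 members were called, with edgeR adjusted p between 0.052 (*Mup11*) and 0.521 (*Mup9*) for the 6 genes. Without KO replicate 1, 2 members were called (*Mup7* and *Mup11*), and without KO replicate 2, KO replicate 3 or WT replicate 1, 3 members were. *Mup11*, beside *Mup7*, was called without any 1 library. *Mup17* lost its call without any 1 library other than KO replicate 2 or WT replicate 2 (edgeR adjusted p up to 0.117), and *Mup9* without any other than WT replicate 2 or WT replicate 4 (adjusted p up to 0.0843). *Mup1* lost its call without KO replicate 1, 2 or 3, and *Mup3* fell within the fold limit without KO replicate 1, KO replicate 2 or WT replicate 1.

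In males the members pointed the same way with less support. *Mup7* had 5813, 6416, 6013 and 6699 CPM in WT and 2048, 4479, 2088 and 3438 CPM in KO males on SC-435, and the groups did not overlap. Its log2 fold change was -1.05 ± 0.25, again with no test. *Mup17* had 1045, 1868, 1529 and 3026 CPM in WT and 500, 526, 30.3 and 305 CPM in KO males, again without overlap (log2 fold change -2.45 ± 0.69, edgeR adjusted p = 0.351). *Mup9* had 9.86 to 71.4 CPM in WT and 1.99 to 6.70 CPM in KO males (log2 fold change -2.76 ± 0.60, edgeR adjusted p = 0.239). *Mup3* had 3802 to 5162 CPM in WT and 3576 to 4519 CPM in KO males (log2 fold change -0.16 ± 0.14). By edgeR 0 of 9 members were called, where 0.0259% of all genes tested were called. DESeq2, whose share of all genes is not given here, called *Mup1* and *Mup9* lower in KO males (adjusted p = 0.0235 and 0.00935), beside *Mup7*, the chosen gene. *Mup1* and *Mup9* are near-identical to *Mup7* and may share reads with it. Their calls may therefore not be independent of its choice. The 6 near-identical members summed to 8631 ± 1490 CPM in WT and 3532 ± 1368 CPM in KO males on SC-435, at 7133 to 10614 and 2209 to 5269 CPM, without overlap.

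Whether the genotype difference on SC-435 differed between the sexes was tested as an interaction. For *Mup7* the fall was smaller in males by 2.39 ± 0.49 on the log2 scale, a description given its choice, and for *Mup3* the value was 0.88 ± 0.22 (edgeR adjusted p = 0.197). By edgeR 0 of 9 members passed, where 0.0303% of all genes passed. DESeq2, whose share of all genes is not given here, passed *Mup3* (adjusted p = 0.0172) and *Mup7*, whose pass is not independent of its choice. Without female KO SC-435 replicate 3 the value of *Mup7* was 2.94, again a description.

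In females on SC-435 markers of other liver cells differed between genotypes. The summed level of 8 cholangiocyte markers was 140 to 187 CPM in female KO and 66.6 to 73.4 CPM in female WT mice. The 7 stellate cell markers summed to 248 to 296 CPM and 122 to 161 CPM in the same groups. The 8 macrophage markers overlapped, at 320 to 496 and 396 to 488 CPM, as did the 11 hepatocyte markers, at 94557 to 109560 and 94197 to 108880 CPM. In males on SC-435 the cholangiocyte markers were 89.4 to 103 CPM in KO and 69.5 to 86.3 CPM in WT mice, without overlap, and the stellate cell markers overlapped, at 102 to 160 and 98.4 to 118 CPM. In bulk liver, fewer cells of a type and less RNA per cell cannot be told apart, and the part of cell composition in the Mup differences was not tested.

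Between genotypes on chow, where *Mup7* had its largest fall (in females), the values of all members are a description. Female WT chow mice had 3.99, 68.8, 1.03 and 1.77 CPM of *Mup7* and female KO chow mice 0.248, 0, 0.0982 and 1.02 CPM. The lowest WT female, at 1.03 CPM, was just above the highest KO female, at 1.02 CPM. The log2 fold change was -5.86 ± 1.55, and it was -2.76 without WT chow replicate 2. In males *Mup7* had 4998 to 9555 CPM in WT and 2398 to 7686 CPM in KO mice, with a log2 fold change of -0.65 ± 0.39, with overlapping groups.

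*Mup17* varied widely between females on chow. Its counts in female KO chow mice were 6, 1, 3 and 2668 reads, and in female WT chow mice 2459, 38438, 2774 and 25659 reads. KO chow replicate 4 thus held as many *Mup17* reads as the lower WT mice, and the other 3 held almost none. The same mouse stood above its group mates for *Mup3*, with 1995 CPM against 547, 418 and 713 CPM, for *Mup2*, with 6.20 against 0.373 to 0.647 CPM, and for *Mup21*, with 3.65 against 0.652 to 0.923 CPM. Its cholangiocyte markers summed to 186 CPM, against 226 to 345 CPM in its group mates, and its stellate cell markers to 279 CPM, against 350 to 678 CPM. For *Mup20* it did not stand high, at 75.4 CPM against 72.3, 128 and 250 CPM.

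*Mup20* went the other way from the near-identical members on chow. It was 72.3 to 250 CPM in female KO and 17.6 to 46.4 CPM in female WT mice, a log2 fold change of 2.22 ± 0.43 without overlap. In males it was 2105, 2021, 1943 and 1433 CPM in KO and 1495, 979, 1174 and 1140 CPM in WT mice, where the lowest KO mouse lay below the highest WT mouse, a log2 fold change of 0.69 ± 0.22. The WT male at 1495 CPM was replicate 1, the library that stood apart, and the other 3 WT males reached 1174 CPM. Without it the log2 fold changes in males were 0.81 for *Mup20* and -0.80 for *Mup7*. In females 5 of 9 members passed both limits on chow, *Mup20* higher and *Mup1*, *Mup7*, *Mup9* and *Mup21* lower, beside 6.68% of all genes. The number was 8 without KO chow replicate 4 and 1 without WT chow replicate 2 or without KO chow replicate 2, and it was 2 without KO chow replicate 1 or KO chow replicate 3. In males 0 of 9 passed by edgeR, beside 1.05% of all genes, and 0 by DESeq2. Since *Mup7* was chosen for a fall in KO mice, nothing is read from these numbers.

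Markers of other cells differed between genotypes on chow as well. In females the 11 hepatocyte markers summed to 69590 to 91158 CPM in KO and 105970 to 132543 CPM in WT mice. The cholangiocyte markers summed to 186 to 345 and 78.2 to 114 CPM, the macrophage markers to 616 to 900 and 389 to 466 CPM and the stellate cell markers to 279 to 678 and 158 to 231 CPM, so none of the 4 lists overlapped. In males the cholangiocyte markers were 186 to 1223 CPM in KO and 67.5 to 77.5 CPM in WT mice and the stellate cell markers 211 to 887 and 132 to 160 CPM. The hepatocyte and macrophage markers overlapped in males. The part of these cells in the Mup values was not tested.

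**Figure D4:**
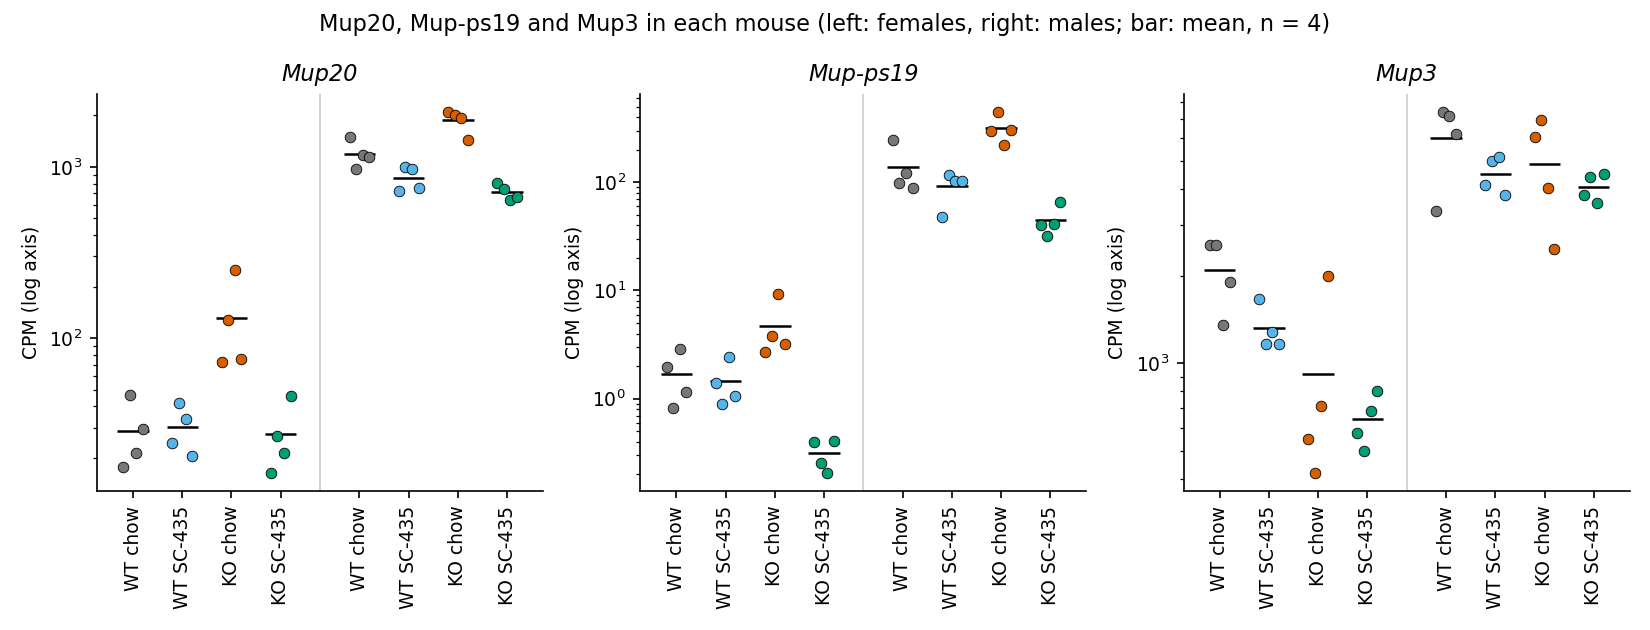
CPM of *Mup20*, *Mup-ps19* and *Mup3* in each mouse on log axes that differ between panels, with female groups left and male groups right, points for mice and bars for means (n = 4). *Mup20* and *Mup-ps19* are highest in the KO chow groups of each sex, with group means of *Mup20* at 131 CPM in female and 1875 CPM in male KO chow mice, while *Mup3* is highest in WT chow mice.

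The KO chow mice also enter the comparison of diets within KO mice, so those values are given as a description too. With SC-435, *Mup20* was 16.3, 26.9, 21.5 and 46.2 CPM in KO females and 808, 745, 637 and 670 CPM in KO males. These lay below all KO chow mice of the same sex, with log2 fold changes of -2.26 ± 0.44 in females and -1.42 ± 0.15 in males. *Mup-ps19*, which shares much of its sequence with *Mup20*, fell in the same groups from 2.69 to 9.25 CPM to 0.206 to 0.409 CPM in females and from 221 to 450 CPM to 32.1 to 66.3 CPM in males. *Mup2* moved up, from 3.37 to 8.62 CPM to 10.6 to 15.0 CPM in KO males (log2 fold change 1.03 ± 0.30). *Mup7* had log2 fold changes of 0.78 ± 0.91 in KO females and -0.65 ± 0.39 in KO males, with overlapping groups. In all, 1 of 9 members passed both limits in KO females and 2 of 9 in KO males, beside 5.8% and 6.45% of all genes. Without female KO chow replicate 4 the number in females was 6, but the share of all genes without that library is not given. Nothing is read from that rise.

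In WT mice, SC-435 against chow gave no member past both limits in either sex. In females *Mup1* had a log2 fold change of 1.28 ± 0.39 and *Mup3* of -0.66 ± 0.20 (edgeR adjusted p = 0.102 and 0.0999). In males *Mup9* had 9.86, 24.1, 17.0 and 71.4 CPM with SC-435 and 2.73, 6.85, 5.31 and 8.24 CPM on chow, without overlap (log2 fold change 2.39 ± 0.61, edgeR adjusted p = 0.382). *Mup7* was 4998 to 9555 CPM on chow and 5813 to 6699 CPM with SC-435 in males, a log2 fold change of -0.27 ± 0.26. Without male WT chow replicate 1, again 0 members were called, and the log2 fold changes of *Mup1*, *Mup7* and *Mup9* were 0.04, -0.42 and 2.16, against -0.96, -0.27 and 2.39 with it. By edgeR 0 of 9 members were called in females and 0 of 9 in males, beside 1.1% and 0.0394% of all genes. DESeq2, whose share of all genes is not given here, called *Mup1* in females and *Mup9* in males (adjusted p = 0.0117 and 0.00519). In the interaction of sex and diet in WT mice 0 of 9 members passed by edgeR, beside 0.0428% of all genes, and 0 by DESeq2.

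The members varied between mice of a group as well as between groups. In male WT SC-435 mice *Mup7* had a coefficient of variation of 6.38% and *Mup3* of 14.5%, while *Mup9* had 90.9%. In female WT chow mice *Mup17* spanned 64.5 to 908 CPM, a 14.1-fold range, and *Mup3* a 1.88-fold range. Over the 32 mice, with the mean of each sex removed from log2(CPM + 1), *Mup7* correlated most with *Mup17* (r = 0.754), *Mup11* (r = 0.716) and *Mup3* (r = 0.703) among the members. *Mup20* had negative r with every other member, from -0.173 with *Mup7* to -0.776 with *Mup2*, and r = 0.721 with *Mup-ps19*. These are descriptions over libraries that share reads between near-identical genes.

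Outside the 9 members, the rows with the largest mean shares of the family's counts over the 32 mice were *Mup12* (7.70%) and *Mup16* (4.19%). *Mup12* had 2499 ± 807 CPM in male and 145 ± 70.8 CPM in female WT chow mice. Of the 48 rows, 40 reached 10 counts in at least 1 mouse and 6 were at 0 in all mice. Another row of the run, deposited as *Gm21320* at chr4:60817589-60821463, carries the name *Mup22* in GENCODE M21. All 812 of its stretches of 50 bases occurred in transcripts of Mup genes, 754 of them in *Mup10*. *Gm21320* had 205 to 1661 CPM in female WT chow mice and 1372 to 2056 CPM in male WT chow mice, and 1241 ± 715 CPM per kb in female WT chow mice.

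*Mup10* and *Gm21320* traded places in single mice. *Mup10* had 4.44, 1563, 1.52 and 5.49 CPM in female WT chow mice, in which *Gm21320* had 1163, 205, 1246 and 1661 CPM. In female WT SC-435 mice *Mup10* had 3.22, 5.47, 1679 and 2.65 CPM and *Gm21320* 2048, 1447, 293 and 1898 CPM. In male KO SC-435 mice *Mup10* had 736, 2.57, 1.99 and 2.73 CPM and *Gm21320* 604, 1835, 1625 and 1484 CPM. In each of these 3 groups the mouse with high *Mup10* had the lowest *Gm21320*. The sum of both rows in these mice was 1768 CPM against 1167 to 1666 CPM in the group mates in female WT chow, 1972 against 1452 to 2051 CPM in female WT SC-435 and 1339 against 1487 to 1837 CPM in male KO SC-435 mice. In male WT chow mice replicate 1, the library that stood apart, had 152 CPM of *Mup10* against 2.35 to 3.65 CPM, and the lowest *Gm21320*, 1372 CPM. These mice were picked out after their values were seen.

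**Figure D5:**
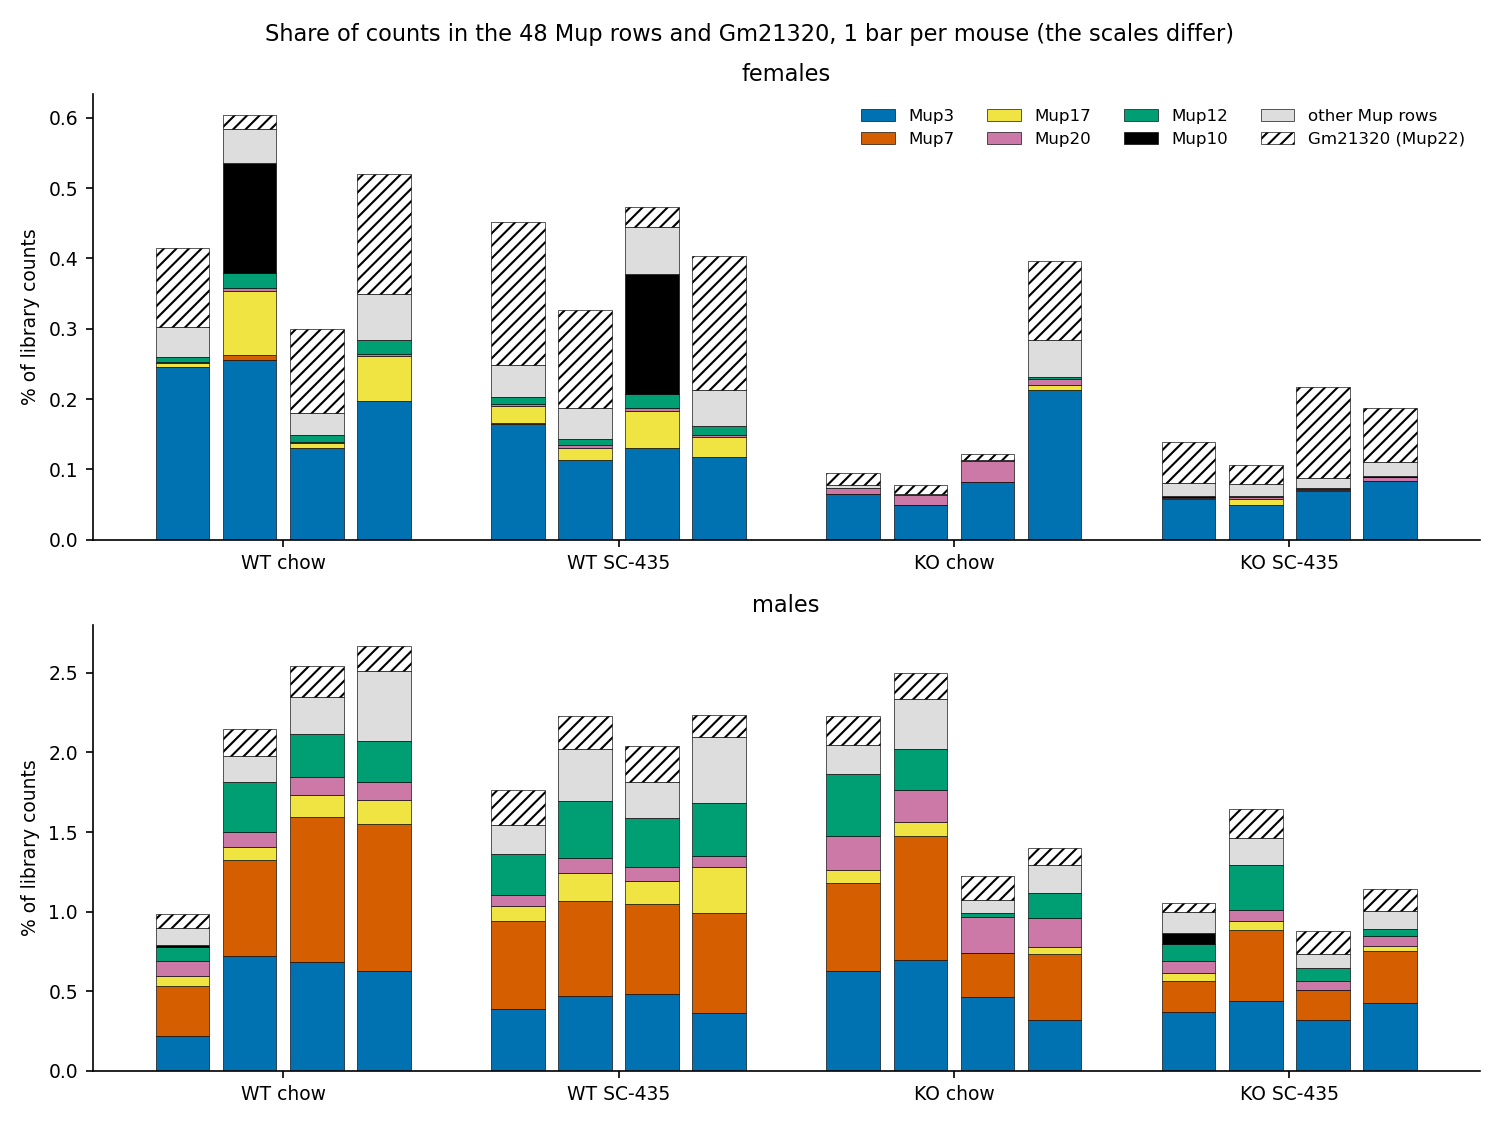
Share of each library's counts in the Mup rows, 1 bar per mouse, stacked by gene, with females above and males below on different scales. Hatched parts are *Gm21320*, black parts *Mup10*. The 48 Mup rows alone make up 0.0647% to 0.584% of counts in females and 0.734% to 2.51% in males.

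The family's composition differed between the sexes. *Mup3* supplied 63.5% ± 16.5 of the family's counts in female WT chow mice and 28.6% ± 5.75 in male WT chow mice. *Mup7* supplied 35.5% ± 3.54 in the males and 0.353% ± 0.551 in the females. *Mup20* supplied 15.6% ± 10.6 of the counts in female KO chow mice and 3.07% ± 1.04 in female KO SC-435 mice. The family summed to 3564 ± 1656 CPM in female WT chow, 1210 ± 976 in female KO chow, 2731 ± 1116 in female WT SC-435 and 879 ± 124 in female KO SC-435 mice. In males the sums were 20933 ± 5050, 15612 ± 6962, 19864 ± 2601 and 10948 ± 2692 CPM in the same order. In female WT SC-435 mice *Gm21320*, not counted among these rows, had 1421 ± 794 CPM, beside 1321 ± 236 CPM of *Mup3*. With *Gm21320* added, female KO SC-435 mice summed to 1596 ± 478 CPM and female WT SC-435 mice to 4153 ± 588 CPM.

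Few genes beside the cluster were called. Of 21 protein-coding neighbors without a Mup name in the deposited rows, inside the run or within 500 kb of it, 16 to 18 were tested in each comparison. *Gm21320*, a Mup gene by its GENCODE M21 name, was counted among the 21. None of the neighbors tested were called between the sexes in WT chow, WT SC-435 or KO chow mice, beside 1.4%, 2.15% and 1.57% of all genes. In these settings edgeR called 5 to 8 members, *Mup7* among them. *Wdr31* was called lower in males than females in KO SC-435 mice (1 of 18), beside 6.02% of all genes. In female KO against WT mice on SC-435 *Wdr31* was called higher, 1 of 17, and none lower, beside 2.56% of all genes. With so few neighbors tested and such shares of all genes, nothing is read from these counts.

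Growth hormone signaling genes and other sex-biased liver genes were set beside the members. Of 14 male-biased genes tested between the sexes in WT chow mice 13 were called higher in males, and of 18 female-biased genes 16 were called lower. The share of all genes called there was 1.4%. The fatty acid hydroxylase *Cyp4a12b* had 0.171 ± 0.133 CPM in female and 136 ± 35.5 CPM in male WT chow mice, and the steroid hydroxylase *Cyp2a4* had 432 ± 114 CPM in female and 0.547 ± 0.148 CPM in male WT chow mice. Of 9 signal and receptor genes (*Ghr*, *Prlr*, *Jak2*, *Stat5a*, *Stat5b*, *Socs2*, *Cish*, *Igf1*, *Igfals*) 1 was called there, the prolactin receptor *Prlr*, lower in males by 2.33 ± 0.21 on the log2 scale in edgeR (adjusted p = 0.000719). Of 9 transcription factors 2 were called lower in males, the female-biased repressor *Cux2* and the estrogen receptor *Esr1*. In female KO against WT mice on SC-435, 6 of 9 members, *Mup7* among them, and 2.56% of all genes were called. Of the signal genes 0 of 9 were called, and of the transcription factors 0 of 9. Beside that share of all genes, 0 of 9 does not set these lists apart. Of 13 male-biased genes tested 1 was called, the fatty acid elongase *Elovl3*, lower in KO females by 2.30 ± 0.30 on the log2 scale in edgeR (adjusted p = 0.00218), with 45.1 ± 7.07 CPM in WT and 9.12 ± 4.46 CPM in KO females. Of 18 female-biased genes 1 was called, the hydroxy acid oxidase *Hao2*, higher in KO females by 2.73 ± 0.40 on the log2 scale in edgeR (adjusted p = 0.00368). The median log2 fold changes of the lists in that comparison were -0.475 for male-biased, -0.029 for female-biased, -0.132 for signal genes and -0.163 for transcription factors.

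Of 9 other lipocalins tested, 3 were called higher in female KO than WT mice on SC-435 and none lower, beside 2.56% of all genes. They were the acute-phase carriers *Orm2* and *Orm3* and the prostaglandin synthase *Ptgds*. *Orm2* had 20.5 ± 1.79 CPM in WT and 46.8 ± 7.98 CPM in KO females (edgeR adjusted p = 0.000615). Between the sexes in WT chow mice 0 of 9 other lipocalins were called, beside 1.4% of all genes. With SC-435 in WT females, where no member was called, *Cish*, the feedback inhibitor induced by STAT5, was called lower, at 4.12 ± 1.71 CPM with SC-435 and 22.5 ± 12.0 CPM on chow (edgeR adjusted p = 0.0161), as was *Onecut1*. Of 14 male-biased genes 4 were called higher and 1 lower there, beside 1.1% of all genes. *Elovl3* had 45.1 ± 7.07 CPM with SC-435 and 10.8 ± 3.33 CPM on chow.

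The genes outside the family whose pattern was most like that of *Mup7* were found by Pearson r over the 32 mice with the mean of each sex removed, among 11717 protein-coding genes. They were *Cyp7b1*, an oxysterol hydroxylase of bile acid synthesis (r = 0.789), *Sdr9c7* (r = 0.745), *Mark3* (r = 0.744), *Npr2* (r = 0.738) and *Serpina1e* (r = 0.726). Within sexes, r for *Cyp7b1* was 0.797 in females and 0.878 in males. For the family's sum they were *Hopx* (r = 0.821), *Cand1* (r = 0.795), *Hao1* (r = 0.777), *Arhgap26* (r = 0.771) and *Slc17a3* (r = 0.766). These are the highest of many values over 32 libraries that also differ in genotype and diet.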

How the data were processed

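Liver RNA from 32 mice was sequenced after poly-A selection. Per the submitters' processing notes the authors used HISAT2 2.0.5 on mm10, featureCounts 1.5.0-p3, DESeq2 1.20.0 and GATK 4.1.1.0; strand and multi-mapping settings are not given in the sources used here. The deposited read counts per gene were used, the deposited FPKM values were not, and the authors' own fold changes and p-values were left out. Members and gene lists were chosen with earlier results of these data known. Each comparison was fitted on its 8 libraries (16 for interactions) with edgeR 4.0.16 (filterByExpr, TMM, quasi-likelihood test, Benjamini-Hochberg), on which all 9 members passed the filter; DESeq2 1.42.0, other scalings and filters, 1 fit over 8 groups, a replicate block and leaving out each library were alternatives. Named genes were the 9 members, neighbors within 500 kb, the 5 genes most like *Mup7* and the family (mean of 50 counts or more), and up to 3 genes per list. Labels name separate mice, and replicate numbers do not state a shared litter. Same-numbered mice deviated together (all 4 pairs over 0.1, r = 0.115 to 0.188) only in KO against WT males on chow, where the block left 0 members called. The scripts were tested on simulated data.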

Additional observations from a re-analysis of the deposited data

Results flagged for a closer look

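Of 80 groups of 4 mice tested (the 9 members and the sum of the Mup family, in 8 groups each), 9 held 1 mouse far outside its group mates by Dixon's test at 95%. The test assumes normal values and was run on CPM, and the 80 groups share mice and reads. The number flagged is therefore not set against a rate from chance. Female KO chow replicate 4 accounted for 4 of the 9 flagged groups. It had 64.872 CPM of *Mup17* against 0.019174 to 0.11426 CPM in its group mates. It had 6.2003 CPM of *Mup2* against 0.3733 to 0.64746 CPM, 3.6472 CPM of *Mup21* against 0.65192 to 0.92343 CPM and 1.2887 CPM of *Mup9* against 0.019043 to 0.17683 CPM. Female WT chow replicate 2 had 68.816 CPM of *Mup7* against 1.0318 to 3.9897 CPM. Female WT SC-435 replicate 3 had 8.8548 CPM of *Mup9* against 3.1462 to 3.8891 CPM. In female KO SC-435 mice, replicate 1 had 17.743 CPM of *Mup2* against 7.4055 to 8.3391 CPM, and replicate 2 had 84.529 CPM of *Mup17* against 2.3394 to 11.608 CPM. Male KO chow replicate 2 had 219.06 CPM of *Mup21* against 67.864 to 93.431 CPM.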

How the results depend on the processing

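Over all members and comparisons, 928 of 986 values kept their direction and their side of the limits under another scaling, filter, tool or fit, and 1030 of 1152 did so when 1 library was left out. With all 8 groups in 1 fit, the number of members called was 0 in KO against WT females on SC-435, 8 in KO against WT females on chow, 1 in KO against WT males on chow, 3 in SC-435 against chow in KO females and 1 in KO males. With DESeq2 it was 3 in KO against WT males on SC-435, 1 in SC-435 against chow in WT females, 1 in WT males and 2 in the interaction of sex and genotype on SC-435. Without a filter on low counts it was 1 in KO against WT males on SC-435, 5 in SC-435 against chow in KO females and 1 in that interaction. With library size as the only scaling it was 1 in SC-435 against chow in KO males, and *Mup21* in KO against WT males on chow turned to a log2 fold change of 0.032. That scaling shifted the median of all genes by 0.254 in KO against WT males on chow, 0.193 in females, -0.202 and -0.16 in SC-435 against chow in KO males and females, and -0.156 between the sexes in WT chow mice. The share of all genes called is not given for any alternative fit, so no result about the members is read from these numbers. The cause of these changes was not tested.

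With the replicate number as a block, the number called was 4 in SC-435 against chow in KO females and 1 in KO males. The block turned *Mup7* and *Mup17* in SC-435 against chow in WT females to 0.348 and 0.354, *Mup11* in KO females to 0.497, *Mup1* and *Mup21* in KO males to 0.077 and 0.115, and *Mup7* in the interaction of sex and diet to -0.713. Outside KO against WT males on chow at least 1 same-numbered pair was not over 0.1, and no pairing was taken from the number. Male against female WT chow mice came close, with 3 of 4 pairs over 0.1 (r = 0.0954 to 0.471). There the block took the call from *Mup11*.

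Leaving out 1 library gave between 2 and 6 members called in KO against WT females on SC-435, 2 and 6 between the sexes in WT chow mice, 4 and 8 in KO chow mice, 1 and 8 in KO against WT females on chow, 1 and 6 in SC-435 against chow in KO females, 1 and 2 in KO males, and 0 and 1 in the interaction of sex and genotype. The share of all genes called without each library is not given, so no result about the members is read from these numbers. Some log2 fold changes changed sign, and not only those near 0. With all libraries *Mup7* was at -1.613 in SC-435 against chow in WT females. In KO against WT females on SC-435, *Mup2* ranged from -0.444 to 0.084 and *Mup20* from -0.48 to 0.083. In SC-435 against chow in WT females, *Mup7* ranged from -2.006 to 1.463, *Mup9* from -0.35 to 0.747, *Mup11* from -0.15 to 1.268, *Mup17* from -0.827 to 0.296 and *Mup20* from -0.121 to 0.403. In WT males *Mup1* ranged from -1.274 to 0.035 and *Mup11* from -0.312 to 0.699. In KO against WT males on chow *Mup11* ranged from -1.154 to 0.194 and *Mup21* from -0.646 to 0.049. In SC-435 against chow in KO females, *Mup3* ranged from -0.773 to 0.179, *Mup11* from -1.362 to 0.276 and *Mup17* from -1.485 to 8.557. In KO males *Mup1* ranged from -0.554 to 0.484, *Mup9* from -0.026 to 0.861 and *Mup21* from -0.207 to 0.505. In the interaction of sex and genotype on SC-435, *Mup20* ranged from -0.356 to 0.198. In that of sex and diet in WT mice, *Mup7* ranged from -1.73 to 1.735, *Mup11* from -1.201 to 0.22 and *Mup21* from -0.196 to 0.295.

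Depth limited *Mup7*, *Mup1*, *Mup9* and *Mup17* most in female KO mice on chow, where single libraries held as few as 0 or 1 reads of them.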
